A study of Mus musculus with 22 samples.

Results

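The hyaluronan system was followed through the endothelial and blood-forming cells of the mouse embryonic aorta. The set was defined by gene symbol as CD44, the main receptor of hyaluronan, with other genes of hyaluronan synthesis, binding and breakdown. Its members were Cd44, Lyve1, Stab1, Stab2, Hmmr, Has1, Has2, Has3, Hyal2 and Hapln1, 10 of the 24454 gene symbols in the count table. RNA-seq had been made from 22 libraries of 25 sorted cells each, taken from the aorta-gonad-mesonephros region (AGM, where blood stem cells first form) of C57BL/6 embryos. The cells had been sorted with antibodies against VE-Cadherin, CD44 and Kit, without culture or treatment. Of the VE-Cad+ libraries 10 were CD44Neg, named endothelial cells in the labels, with 4 from E9.5, 3 from E10 and 3 from E11 (embryonic days). Another 6 were CD44LowKitNeg, named hemogenic endothelial cells, with 1 from E9.5, 2 from E10 and 3 from E11. The 3 CD44LowKitPos libraries (Pre-HSPC, precursors of blood stem and progenitor cells) came from E9.5 (1) and E10 (2), and 3 CD44High libraries (HSPC, blood stem and progenitor cells) all came from E11.

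Hyaluronan is a long, unsulfated sugar polymer that is spun out of the cell through the plasma membrane by the HAS enzymes, which use UDP-sugars made in the cytosol. On the cell surface it is bound by CD44, by the related lymphatic receptor LYVE1 and by the scavenger receptors STAB1 and STAB2, which take it up for degradation, while HYAL2 and TMEM2 cut it and HAPLN1 clamps it to proteoglycans. In blood vessels it forms part of the coat on the luminal side of the endothelium, and blood cells that carry CD44 can attach to it.

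Each library held between 3912350 and 8657546 counted reads, with a median of 5758382.5, and no pair of libraries was identical. Levels are given as normalized CPM, which are CPM scaled with the TMM factors of all 22 libraries, and a count of 0 allows up to 3 counts in a library (counting error only, as the reads carry no molecular identifiers). The summed level of 7 endothelial markers was 3087 to 5050 normalized CPM in CD44Neg, 3308 to 7395 in CD44LowKitNeg and 532 to 1566 in CD44LowKitPos, against 14.3 to 65.2 in CD44High. Although the labels give the CD44High cells as VE-Cad+, Cdh5, the gene of VE-Cadherin, had no counts in any of these 3 libraries. All 9 macrophage markers had counts in each CD44High library, with sums of 3661, 5213 and 5860. Among these markers Adgre1, C1qa, C1qb and C1qc were at 0 in the other 19 libraries. The rest had counts outside CD44High, such as Lyz2 at 145 to 212 in CD44LowKitPos. Macrophage sums reached 12.5 in CD44Neg, 71.5 in CD44LowKitNeg and 222 in CD44LowKitPos. Haematopoietic markers summed to 5.84 to 39.8 in CD44Neg, 7.63 to 302 in CD44LowKitNeg, 446 to 1218 in CD44LowKitPos and 966 to 1718 in CD44High. Mesenchymal markers reached at most 98.4 outside CD44High and 0.272 to 371 within it, and erythroid markers at most 58.9 and 42.3 to 254. No CD44LowKitPos library came from E11 and every CD44High library did, so stage and population cannot be told apart for that pair. A stage term for that pair takes its E11 difference from CD44Neg and CD44LowKitNeg alone, and their stage differences need not hold for it. The date in the labels changes with the stage, so stage and date cannot be told apart either. The labels do not say whether libraries came from separate embryos, so p-values measure only the spread between these libraries. In bulk libraries, fewer cells of a type and less RNA per cell cannot be told apart.

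In GRCm38 (mm10) all 10 members are protein-coding. Cd44 lies on the minus strand at chr2:102811141-102901665. The receptor genes Lyve1 (chr7:110850607-110863239), Stab1 (chr14:31139013-31168641), Stab2 (chr10:86841198-87008025) and Hmmr (chr11:40701395-40733422) are also on the minus strand, as are Has1 (chr17:17843323-17855205) and Has2 (chr15:56665627-56694539). Has3 (chr8:106870242-106884566), Hyal2 (chr9:107567945-107572779) and Hapln1 (chr13:89539796-89611652) are on the plus strand. The exons of 3 members overlap those of another counted gene on the opposite strand. Has2 shares 182 exonic bases (4.30% of its exon length) with the antisense RNA Has2os, which held 19 counts in all against 883 for Has2. Stab1 shares 112 bases (1.09%) with Nt5dc2. Has3 shares 352 bases (5.52%) with Chtf8, which held 2927 counts against 43 for Has3. The strand setting of the counting is not given in the sources used here, so reads in these stretches cannot be assigned to either gene.

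The promoters of members called between populations are shown, since some of these genes were higher and others lower in the same cells. The set of RefSeq promoter windows used here (GRCm38.p6) held 7 of the 10 members. It had no window for Has2, Has3 or Lyve1. Each sequence is the 250 bases before the RefSeq transcription start, 5′ to 3′ on the gene's own strand. For Cd44 and Stab1 this start matches the outermost gene end of GENCODE given above. For the others it differs, so that the windows of Hyal2 and Hapln1 lie within the GENCODE gene. Those of Stab2 and Has1 overlap the gene end. In the sequences, capitals mark matches to 4 short motifs searched on both strands. These were TGTGGT, bound by RUNX factors, CCGGAA, bound by ETS factors, AGATAA, bound by GATA factors, and GGGCGG, bound by SP and KLF factors.
Cd44, chr2:102901666-102901915, minus strand: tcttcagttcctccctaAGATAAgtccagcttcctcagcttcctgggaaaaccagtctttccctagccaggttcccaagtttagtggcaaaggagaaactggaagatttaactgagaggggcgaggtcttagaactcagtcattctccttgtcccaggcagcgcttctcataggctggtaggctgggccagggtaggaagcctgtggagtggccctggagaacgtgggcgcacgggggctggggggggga
Stab2, chr10:87007943-87008192, minus strand: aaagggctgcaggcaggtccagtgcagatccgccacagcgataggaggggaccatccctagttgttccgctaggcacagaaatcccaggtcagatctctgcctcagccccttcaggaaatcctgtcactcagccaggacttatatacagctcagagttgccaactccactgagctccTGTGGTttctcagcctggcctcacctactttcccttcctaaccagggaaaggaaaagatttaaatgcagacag
Stab1, chr14:31168642-31168891, minus strand: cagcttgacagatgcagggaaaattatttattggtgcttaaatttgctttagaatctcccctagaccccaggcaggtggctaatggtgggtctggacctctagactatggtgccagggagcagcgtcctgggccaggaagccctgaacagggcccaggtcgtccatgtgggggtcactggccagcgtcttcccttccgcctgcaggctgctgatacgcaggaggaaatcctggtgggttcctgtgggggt
Hyal2, chr9:107568913-107569162, plus strand: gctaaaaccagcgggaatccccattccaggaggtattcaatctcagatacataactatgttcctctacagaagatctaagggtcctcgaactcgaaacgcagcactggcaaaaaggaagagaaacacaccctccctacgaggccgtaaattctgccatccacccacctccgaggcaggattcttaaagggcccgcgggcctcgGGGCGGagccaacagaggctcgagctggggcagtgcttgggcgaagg
Hapln1, chr13:89540386-89540635, plus strand: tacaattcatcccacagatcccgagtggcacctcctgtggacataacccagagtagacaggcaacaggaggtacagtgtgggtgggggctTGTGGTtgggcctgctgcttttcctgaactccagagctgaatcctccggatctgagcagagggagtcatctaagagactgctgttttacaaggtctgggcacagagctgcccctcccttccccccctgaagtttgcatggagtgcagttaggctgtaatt
The Cd44 window held the GATA letters from position -233 (counted back from the RefSeq start). The RUNX letters stood at -73 in Stab2 and at -160 in Hapln1, and the SP/KLF letters at -47 in Hyal2 and at -93 in Hmmr, while none of the 4 motifs was found in the windows of Stab1 and Has1. Of 32851 promoter windows of the same length, 14.0% held the RUNX letters, 12.03% the ETS letters, 9.99% the GATA letters and 32.7% the SP/KLF letters. These matches are a description of the letters and were not tested as binding sites.

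In the comparisons of populations 8 of the 10 members passed the filter on low counts, and Has1 and Has3 did not. A gene counted as called where the quasi-likelihood test of edgeR gave a Benjamini-Hochberg adjusted p below 0.01. Between CD44LowKitNeg and CD44Neg, 3 of the 8 members were called (Cd44 and Has2 higher, Stab2 lower), where 10.2% of 11022 genes were called, 4.94% higher and 5.23% lower. Cd44 encodes a protein used to sort the cells. In this comparison Has2 passed the filter only through CD44LowKitNeg and Stab2 only through CD44Neg. These 3 calls are thus no independent support for the set. A single member, Stab1, was called (lower) between CD44LowKitPos and CD44LowKitNeg, with 4.26% of 12949 genes called, 2.55% higher and 1.71% lower. CD44LowKitPos differed from CD44Neg in 3 members (Cd44 higher, Hyal2 and Stab1 lower), against 3.48% of genes, 2.08% higher and 1.41% lower. CD44High against CD44LowKitPos gave 1 member (Hapln1, lower), against 3.01% of genes, 0.78% higher and 2.23% lower. In CD44High against CD44LowKitNeg 3 members were called, all lower (Hapln1, Has2 and Hyal2), against 16% of genes, 7.79% higher and 8.17% lower. Against CD44Neg, CD44High differed in 3 members (Cd44 higher, Hapln1 and Hyal2 lower), with 14.4% of genes called, 7.14% higher and 7.25% lower. The median log2 fold change of the 8 members ranged from -2.29 to -0.26 over these comparisons, beside -0.023 to 0.0050 for all genes tested. These comparisons share libraries with each other. Hmmr and Lyve1 were called in none of the 6 by edgeR or DESeq2, and in none was their unadjusted p in edgeR under 0.05.

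**Figure D1:**
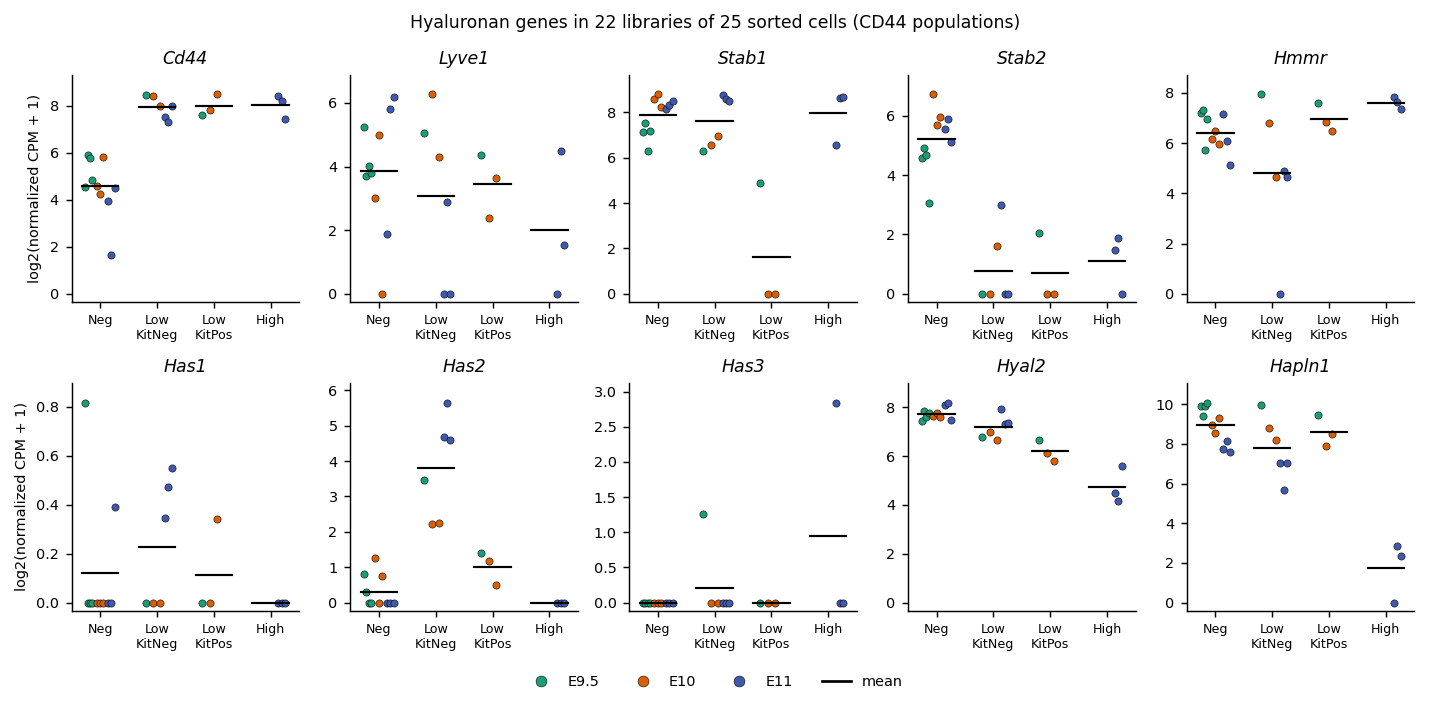
Each point is 1 library, at log2(normalized CPM + 1) on the vertical axis, for the 10 members in the 4 populations, with colours for the stage and a line at the population mean. Cd44 is low in the 10 CD44Neg libraries, Has2 stands above the rest in the 6 CD44LowKitNeg libraries, Stab1 falls in CD44LowKitPos and Hapln1 in CD44High.

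Per kilobase of exon, the members with the highest mean in CD44Neg were Hapln1, at 98.8 ± 55.1 CPM per kb (SD, n = 10), and Hyal2, at 65.3 ± 11.7, which overlapped. Their order changed with the stage, from 155 ± 27.1 for Hapln1 and 61.2 ± 7.61 for Hyal2 at E9.5 (n = 4) to 38.9 ± 8.01 and 74.7 ± 18.1 at E11 (n = 3). Stab1 came next at 25.5 ± 11.7, with Hmmr at 17.4 ± 8.17. At E9.5 their order was reversed, with Stab1 at 13.2 ± 4.23 and Hmmr at 22.1 ± 8.75. Lyve1 (8.36 ± 8.15), Stab2 (4.99 ± 3.11) and Cd44 (4.41 ± 2.88) followed, within each other's spread, and Has2 lay far below them at 0.0725 ± 0.114. In CD44LowKitNeg, Cd44 reached 37.5 ± 11.6 CPM per kb (n = 6), between Hyal2 at 45.6 ± 16.1 and Stab1 at 23.9 ± 15.9, and these 3 neighbours overlapped over all stages. Within stages the order changed, with Cd44 at 43.4 ± 9.37 and Stab1 at 10.7 ± 2.08 at E10 (n = 2) and Cd44 at 29.0 ± 7.24 and Stab1 at 38.3 ± 3.92 at E11 (n = 3). CD44High had another order, with Cd44 at 39.5 ± 12.9 (n = 3), Hmmr at 36.3 ± 6.14 and Stab1 at 28.9 ± 17.1, which overlapped. Hyal2 had a lower mean, at 8.69 ± 5.04, but overlapped with Stab1, and Hapln1 lay below them at 0.576 ± 0.528.

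CD44 is a single-pass membrane protein that links hyaluronan outside the cell to the actin skeleton inside it. As its surface level was used to sort the cells, its RNA served as a check of the sort. Among the 10 CD44Neg libraries Cd44 ranged from 2.14 to 58.9 normalized CPM with a median of 22.6, and among the 6 CD44LowKitNeg libraries from 158 to 349 with a median of 250.2. The CD44LowKitPos libraries were at 223, 354 and 195, and the CD44High libraries at 340.5, 292 and 171. No CD44Neg library reached the lowest library of the 3 CD44-positive populations. Relative to CD44Neg, Cd44 was higher by 3.10 ± 0.42 on the log2 scale (± SE) in CD44LowKitNeg (edgeR adjusted p = 3.95e-05), by 3.11 ± 0.45 in CD44LowKitPos (edgeR adjusted p = 9.97e-05) and by 3.17 ± 0.45 in CD44High (edgeR adjusted p = 1.14e-05). Between CD44High and CD44LowKitPos the log2 difference in Cd44 RNA was 0.06 ± 0.62, and between CD44High and CD44LowKitNeg it was 0.08 ± 0.54. With a stage term these were 1.15 ± 0.66 (edgeR adjusted p = 0.384) and 0.65 ± 0.48 (edgeR adjusted p = 0.327), also not called. No difference in Cd44 RNA between the CD44Low populations and CD44High was detectable with SEs of this size, and its sign changed with the setting. In the 3 E11 populations alone, CD44High differed from CD44LowKitNeg by 0.34 ± 0.57.

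Has2 encodes the synthase that makes most hyaluronan in the embryo. Its counts in the CD44Neg libraries were 0 in 6 libraries and 1, 3, 4 and 7 in the other 4. In CD44LowKitNeg, the 3 E11 libraries held 182, 377 and 150 counts (24.5, 48.8 and 23.2 normalized CPM), the E9.5 library 87 (10.1) and the E10 libraries 22 and 28 (3.69 and 3.79). Every CD44LowKitNeg library lay above every library of the other 3 populations. Has2 was 5.88 ± 0.99 higher on the log2 scale in CD44LowKitNeg than in CD44Neg (edgeR adjusted p = 0.000353). With E11 alone, where the CD44Neg libraries were all at 0, Has2 was at least 52.3-fold higher in CD44LowKitNeg (38.8-fold without CD44LowKitNeg replicate 12), but the call was lost (edgeR adjusted p = 0.0114).

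In CD44LowKitPos, Has2 counts were 8, 3 and 11, or 1.24, 0.400 and 1.66 normalized CPM. The log2 difference from CD44LowKitNeg was -4.09 ± 1.55 and did not pass the test (edgeR adjusted p = 0.0873), while DESeq2 called it (adjusted p = 0.00879). The 3 CD44High libraries had no Has2 count. Against the 3-count limit of each library, the mean level in CD44LowKitNeg was at least 25.8-fold higher (17.7-fold without CD44LowKitNeg replicate 12) than in CD44High, and this difference was called (edgeR adjusted p = 0.00268). The call was lost without CD44High replicate 20 (edgeR adjusted p = 0.0144), 21 (0.0128) or 22 (0.0138). At E11 alone, the level was at least 43.7-fold higher in CD44LowKitNeg than in CD44High (edgeR adjusted p = 0.00208).

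Has1 and Has3, the other synthases, were close to undetected. Has1 had 2 to 4 counts in 6 of the 22 libraries (2 CD44Neg, the 3 CD44LowKitNeg libraries of E11 and 1 CD44LowKitPos) and none elsewhere. Has3 was counted only in the E9.5 library of CD44LowKitNeg, with 12 counts, and in CD44High replicate 20, with 31 counts. Without the filter on low counts edgeR called neither gene in any comparison. The smallest adjusted p was 0.0230, for Has3 in CD44High against CD44Neg, where all the Has3 counts of CD44High came from replicate 20. Of the 3 synthases, Has2 alone had counts in every CD44LowKitNeg library.

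The 8 listed genes that make the precursor sugars of hyaluronan, among them Ugdh, which makes UDP-glucuronic acid, all passed the filter, and edgeR called 0 of 8 in each of the 6 comparisons of populations, with 1 to 4 at an unadjusted p under 0.05. These were 2 of 8 in CD44LowKitNeg against CD44Neg (32.6% of all genes tested), 2 in CD44LowKitPos against CD44LowKitNeg (27.2%), 3 in CD44LowKitPos against CD44Neg (20.3%), 1 in CD44High against CD44LowKitPos (17.8%), 1 in CD44High against CD44LowKitNeg (37.5%) and 4 in CD44High against CD44Neg (33.2%). DESeq2 called Gfpt1 in CD44LowKitPos and in CD44High against CD44LowKitNeg and Pgm3 in CD44High against CD44Neg. Their median log2 fold change between CD44LowKitNeg and CD44Neg was -0.16, beside 0.0050 over all genes tested, and between CD44High and CD44Neg it was -1.05, beside -0.015.

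STAB2 is the scavenger receptor known for clearing hyaluronan in the sinusoidal endothelium of liver and spleen. All 10 CD44Neg libraries expressed Stab2, from 7.32 to 104 normalized CPM with a median of 39.6. In CD44LowKitNeg, 4 of 6 libraries had no count and the other 2 were at 6.99 (E11) and 2.03 (E10). CD44LowKitPos libraries were at 0, 0 and 3.17, and CD44High libraries at 1.78, 2.66 and 0. Every CD44-positive library thus lay below every CD44Neg library. The log2 fold change of Stab2 in CD44LowKitNeg against CD44Neg was -4.82 ± 0.99 (edgeR adjusted p = 0.00172), and -6.65 to -4.54 with 1 library left out. With E11 alone the difference was -4.23 ± 1.62 and the call was lost (edgeR adjusted p = 0.163). The differences of CD44LowKitPos (-5.35 ± 1.63, edgeR adjusted p = 0.0447) and CD44High (-4.85 ± 1.59, edgeR adjusted p = 0.0290) from CD44Neg did not pass the threshold, although DESeq2 called the first of them. At E10 the CD44LowKitPos libraries had no Stab2 count, and CD44Neg was at least 166-fold higher than their limit (129-fold at the lowest without 1 CD44Neg library).

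STAB1, the other stabilin, is a scavenger receptor of sinusoidal endothelium and of some macrophages. Its gene was expressed in all CD44Neg libraries (76.3 to 439.6 normalized CPM, median 291) and all CD44LowKitNeg libraries (78.0 to 439, median 243), and the difference between these 2 populations was not called (log2 difference -0.08 ± 0.40, edgeR adjusted p = 0.923). With a stage term it was -0.62 ± 0.29 (edgeR adjusted p = 0.138), and at E10 the CD44LowKitNeg libraries lay below all CD44Neg libraries. In CD44LowKitPos both E10 libraries had no Stab1 count and the E9.5 library was at 28.5, below every CD44Neg and CD44LowKitNeg library. Stab1 was called lower in CD44LowKitPos than in CD44LowKitNeg (log2 fold change -4.70 ± 1.14, edgeR adjusted p = 0.00970) and than in CD44Neg (-4.79 ± 1.13, edgeR adjusted p = 0.00902). Both calls were near the threshold. The first was lost in 18 of 26 alternatives. These were the fit with a stage term (-3.84, adjusted p = 0.0379) and the fits that left out any 1 of CD44Neg replicates 1, 2, 3, 4, 5, 7, 8, 9 and 10, CD44LowKitNeg replicates 11, 12, 13 and 16, CD44LowKitPos replicates 17 and 18, and CD44High replicates 21 and 22 (log2 fold changes of -4.86 to -4.14, adjusted p up to 0.0516). The second was lost in 17 of 26, which were the fit with a stage term (-4.43, adjusted p = 0.0161) and those without any 1 of the same libraries other than CD44LowKitNeg replicate 11 (-4.87 to -4.20, adjusted p up to 0.0435). Without CD44LowKitPos replicate 19, the library with Stab1 counts, both calls held. At E10 alone, the mean level of CD44LowKitNeg was at least 253-fold and that of CD44Neg at least 860-fold above the limit of the 2 CD44LowKitPos libraries.

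CD44High libraries expressed Stab1 again, at 93.4, 392 and 405 normalized CPM, which overlapped with CD44Neg and CD44LowKitNeg. The difference from CD44LowKitPos was 4.97 ± 1.204 on the log2 scale and missed the threshold (edgeR adjusted p = 0.0119), while DESeq2 called it (adjusted p = 0.00164). With a stage term the difference was 3.81 ± 1.32 (edgeR adjusted p = 0.0984), and with 1 library left out the adjusted p reached 0.0367. Without CD44LowKitPos replicate 19 edgeR called it, with the other 2 CD44LowKitPos libraries at 0 (adjusted p = 9.50e-06). In the same 3 CD44High libraries the summed macrophage markers were 3661, 5213 and 5860 normalized CPM, in the same order as Stab1, and the summed endothelial markers were 14.3, 65.2 and 27.5. The part of these macrophage markers in the Stab1 level was not tested.

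**Figure D2:**
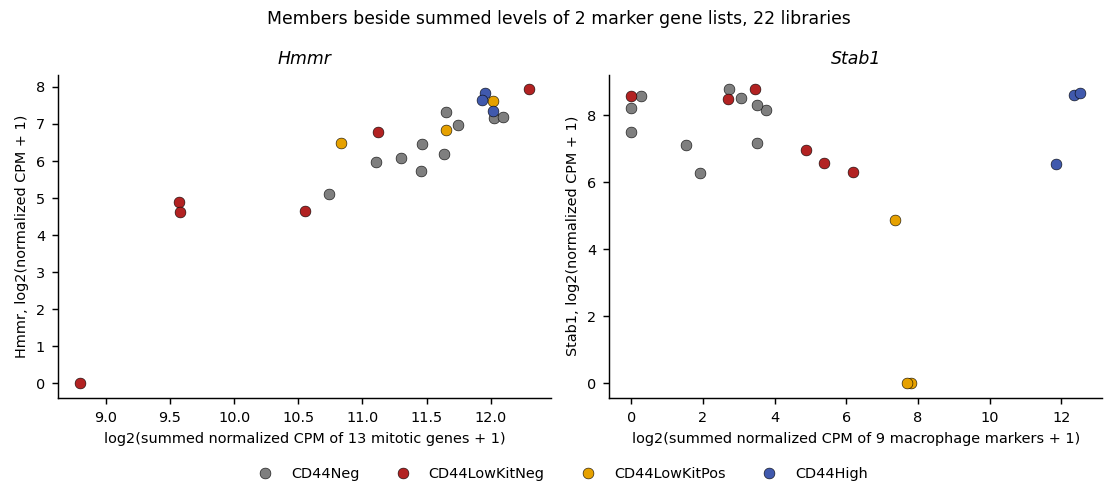
Hmmr against the summed level of 13 mitotic genes (left) and Stab1 against that of 9 macrophage markers (right), each axis as log2(normalized CPM + 1), with 1 point per library coloured by population. Hmmr rises with the mitotic sum over the 22 libraries and within CD44Neg and CD44LowKitNeg, but not among the 3 CD44High libraries, and Stab1 is high both in endothelial libraries with macrophage sums of at most 71.5 and in the CD44High libraries with sums of 3661 or more.

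Lyve1, the gene of a CD44-like receptor best known from lymphatic endothelium, varied widely within each population and was called in no comparison of populations. It ranged from 0 to 71.5 normalized CPM in CD44Neg (median 14.0) and from 0 to 75.9 in CD44LowKitNeg (median 12.5). CD44LowKitPos libraries were at 4.19, 11.47 and 19.4, and CD44High libraries at 0, 21.3 and 1.90. All 4 populations overlapped, and the log2 difference between CD44LowKitNeg and CD44Neg was -0.14 ± 1.01 (edgeR adjusted p = 0.950). Within CD44LowKitNeg the 3 E11 libraries were at 0, 6.34 and 0, below the 3 earlier ones at 32.6, 75.9 and 18.7.

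Hmmr encodes RHAMM, which binds hyaluronan at the cell surface and also microtubules of the mitotic spindle. CD44Neg libraries ranged from 33.8 to 158 normalized CPM (median 79.5), CD44LowKitNeg libraries from 0 to 244 (median 26.3), CD44LowKitPos libraries were at 114, 87.9 and 194 and CD44High libraries at 229, 199.7 and 163. CD44High lay above all CD44Neg libraries, although the difference of 1.065 ± 0.75 on the log2 scale was not called (edgeR adjusted p = 0.343). Hmmr followed the summed level of 13 mitotic genes, such as Mki67 and Plk1, with a single-gene Pearson r from 0.41 (Cenpf) to 0.94 (Ccnb1). Its log2 level and the log2 of their summed level had a Pearson r of 0.90 over the 22 libraries, 0.88 within the 10 CD44Neg and 0.88 within the 6 CD44LowKitNeg libraries. The libraries share their populations and stages, and r was 0.88 without the 2 libraries farthest from the median sum. The only one of these 13 genes called in any comparison of populations was Ccna2, higher in CD44High than in CD44LowKitNeg (1.62 ± 0.43, edgeR adjusted p = 0.00660, kept in 16 of 27 alternatives). CD44LowKitNeg replicate 11, the library with no Hmmr count, also had the lowest mitotic sum, 445 normalized CPM. The E11 CD44LowKitNeg libraries had mitotic sums of 445 to 762 and the CD44High libraries of 3916 to 4152, and at E11 alone the log2 difference in Hmmr between these populations was 3.39 ± 1.09, which was not called (edgeR adjusted p = 0.0395).

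Hyal2 encodes a membrane-anchored hyaluronidase that cuts long hyaluronan into fragments. Its level stepped down along the populations. CD44Neg libraries ranged from 170.1 to 286 normalized CPM (median 206), CD44LowKitNeg libraries from 99.0 to 246 (median 142), CD44LowKitPos libraries were at 68.7, 54.0 and 101, and CD44High libraries at 21.2, 17.04 and 47.6. CD44High did not overlap with any other population, and CD44LowKitPos did not overlap with CD44Neg. CD44LowKitNeg against CD44Neg gave a log2 fold change of -0.51 ± 0.19 that was not called (edgeR adjusted p = 0.0639), but was called with a stage term (-0.64 ± 0.16, edgeR adjusted p = 0.00746) and without CD44LowKitNeg replicate 11 (-0.71, adjusted p = 0.00801). At E11 alone it was -0.33 ± 0.38. The next step, to CD44LowKitPos, was -1.01 ± 0.32 (edgeR adjusted p = 0.0383), and the step to CD44High was -1.39 ± 0.36 (edgeR adjusted p = 0.0197). Neither single step was called by edgeR, while DESeq2 called both (adjusted p = 0.00358 and 0.00724). With a stage term edgeR called the second (-1.87 ± 0.38, adjusted p = 0.00347) and not the first (-0.73 ± 0.30, adjusted p = 0.129). The comparisons over more than 1 step were called. Hyal2 was lower in CD44LowKitPos than in CD44Neg (-1.53 ± 0.31, edgeR adjusted p = 0.00303). It was also lower in CD44High than in CD44LowKitNeg (-2.39 ± 0.35, edgeR adjusted p = 1.60e-05) and than in CD44Neg (-2.91 ± 0.35, edgeR adjusted p = 1.08e-06). The call of CD44LowKitPos against CD44Neg was lost without CD44LowKitPos replicate 17 (-1.47, edgeR adjusted p = 0.0300) or 18 (-1.35, edgeR adjusted p = 0.0419). The step from CD44LowKitPos to CD44High was called without CD44High replicate 22 (-2.01, edgeR adjusted p = 0.00202) or CD44LowKitNeg replicate 11 (-1.40, edgeR adjusted p = 0.00960).

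Hapln1 encodes a link protein that stabilises the bond between hyaluronan and proteoglycans. It was among the best expressed members in the 3 VE-Cad+ populations that held endothelial markers, from 190.5 to 1056 normalized CPM in CD44Neg (median 560.3), from 50.1 to 992 in CD44LowKitNeg (median 212) and at 232, 365 and 697 in CD44LowKitPos. At E11 in CD44LowKitNeg its mean of 17.5 CPM per kb of exon lay below those of Hyal2 (57.1), Stab1 (38.3) and Cd44 (29.0). In CD44High Hapln1 was at 0, 6.12 and 4.08 normalized CPM. CD44High thus lay below every other library. The log2 fold change of CD44High was -7.03 ± 1.13 against CD44LowKitPos (edgeR adjusted p = 0.000205), -6.69 ± 1.09 against CD44LowKitNeg (edgeR adjusted p = 6.67e-05) and -7.47 ± 1.11 against CD44Neg (edgeR adjusted p = 2.12e-05), and each call held under every alternative tried. With a stage term the log2 fold changes were smaller, at -5.17, -5.30 and -5.87 in the same order. At E11 alone CD44High differed from CD44LowKitNeg by -5.09 (edgeR adjusted p = 0.00141) and from CD44Neg by -6.19 ± 0.88 (edgeR adjusted p = 0.000724). CD44LowKitNeg and CD44LowKitPos overlapped with CD44Neg and were not called.

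**Figure D3:**
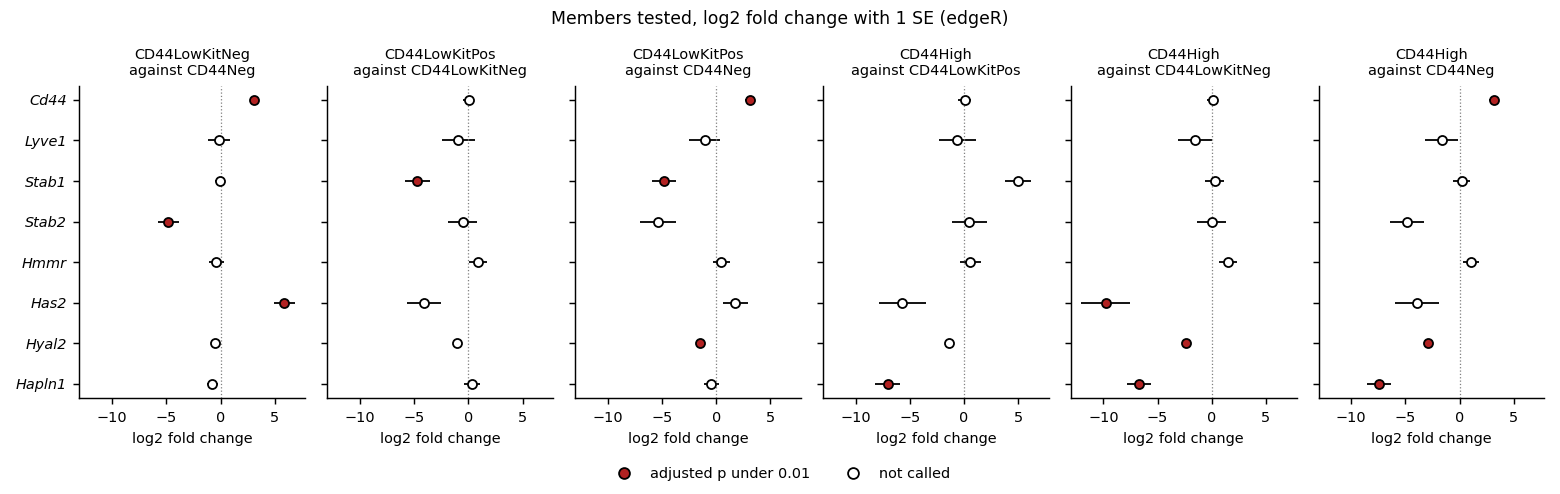
Log2 fold change (horizontal axis) with 1 SE for the 8 members tested in the 6 comparisons of populations, filled where edgeR's adjusted p was under 0.01. Cd44 is filled in the 3 comparisons with CD44Neg and Hapln1 in the 3 comparisons of CD44High. The Has2 values in comparisons with CD44High are fitted against a population at 0 and give no bound.

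Among CD44Neg libraries the members could be compared over 3 stages, and 7 of the 10 were tested. Hapln1 was at 953, 684, 961 and 1056 normalized CPM at E9.5, at 486, 368 and 635 at E10 and at 216, 282 and 190.5 at E11, with no overlap between stages. It was the 1 member called between E11 and E9.5 (log2 fold change -1.97 ± 0.22, edgeR adjusted p = 0.000409), where 0.684% of 11250 genes were called, 0.391% higher and 0.293% lower. Stab1 was at 139, 181, 76.3 and 145 at E9.5, at 381, 439.6 and 296 at E10 and at 286, 314 and 363 at E11, so that every E9.5 library lay below every later one. Its difference of 1.27 ± 0.24 between E11 and E9.5 missed the threshold (edgeR adjusted p = 0.0117) and was called by DESeq2 (adjusted p = 2.64e-05) and by edgeR without CD44Neg replicate 5 (1.42, adjusted p = 0.00928). Between E10 and E9.5, edgeR called 0 of 7 members (0.0178% of genes), with 3 at an unadjusted p under 0.05 (15.2% of genes). The 3 were Stab1 (1.47 ± 0.24), Stab2 (1.80 ± 0.42) and Hapln1 (-0.86 ± 0.21). DESeq2 called the same 3, but the share of all genes that it called was not counted. Between E11 and E10 edgeR called 0 of 7 members, and 0% of genes, with 1 member (Hapln1, -1.11 ± 0.22) at an unadjusted p under 0.05 (8.68% of genes) and called by DESeq2. Stab2 was at 22.8, 29.1, 24.4 and 7.32 at E9.5, at 104, 50.8 and 60.9 at E10 and at 45.6, 58.8 and 33.6 at E11. Cd44 was at 2.14 to 21.8 at E11 and at 22.6 to 58.9 at E9.5, without overlap, but the difference was not called (-1.64 ± 0.66, edgeR adjusted p = 0.209). Hmmr, Hyal2 and Lyve1 overlapped between stages and were called in none of the 3 comparisons by edgeR.

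In CD44LowKitNeg, the 3 E11 libraries were set against the 3 from E9.5 and E10. Stab1 was at 439, 381 and 361 normalized CPM at E11, against 78.0 at E9.5 and 94.5 and 125 at E10. It was the 1 member of 7 called (log2 fold change 2.03 ± 0.24, edgeR adjusted p = 0.00888), where 0.173% of 11010 genes were called (0.109% higher, 0.0636% lower), and the call was lost without any 1 of the 6 libraries, CD44LowKitNeg replicates 11, 12, 13, 14, 15 and 16 (1.86 to 2.21, adjusted p from 0.0211 to 0.0604). Hapln1 went the other way, at 130.1, 50.1 and 130.4 at E11, 992 at E9.5 and 450.4 and 294 at E10 (-2.44 ± 0.50, edgeR adjusted p = 0.0457). Has2 was at 23.2 normalized CPM or more in each E11 library and at most 10.1 in each earlier one, and its difference of 2.50 ± 0.68 was not called (edgeR adjusted p = 0.0969). Cd44 was lower at E11 by a log2 fold change of -0.62 ± 0.25, also not called (edgeR adjusted p = 0.252). The same E11 libraries had summed endothelial markers of 6449 to 7395 normalized CPM against 3308 to 4476 in the earlier ones, haematopoietic markers of 7.63 to 16.1 against 120 to 302 and mitotic genes of 445 to 762 against 1498 to 5029. The part of these differences in the members' values was not tested.

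Whether the gap between CD44LowKitNeg and CD44Neg itself changed from E10 to E11 was tested as an interaction over 11 libraries. No member of the 8 tested was called by edgeR (0.00806% of 12403 genes were), and 3 had an unadjusted p under 0.05 (10.7% of genes). DESeq2, for which the share of all genes was not counted, called 1. That one was Stab1, whose difference moved by 2.04 ± 0.29 on the log2 scale (edgeR adjusted p = 0.0154, DESeq2 adjusted p = 3.73e-08). At E10, CD44Neg libraries lay between 296 and 439.6 and CD44LowKitNeg libraries at 94.5 and 125, while at E11 the 2 populations spanned 286 to 363 and 361 to 439. The Has2 gap widened, with the E11 CD44Neg libraries all at 0, but not past the test (edgeR adjusted p = 0.187). Lyve1 moved by -6.26 ± 2.44 (edgeR adjusted p = 0.370). Without the filter on low counts edgeR called Stab1 (adjusted p = 4.54e-06) and Lyve1 (adjusted p = 1.44e-06), and DESeq2 did not call Lyve1 (adjusted p = 0.485).

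**Figure D4:**
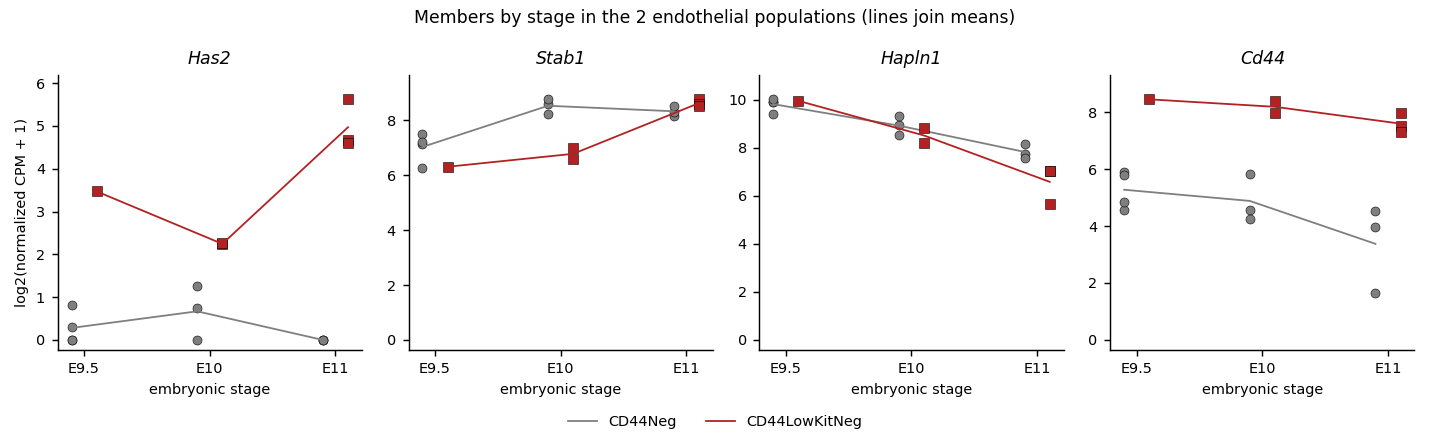
Has2, Stab1, Hapln1 and Cd44 by stage in CD44Neg (grey circles) and CD44LowKitNeg (red squares), as log2(normalized CPM + 1), with lines through the stage means. Stab1 is lower in CD44LowKitNeg at E10 and close to CD44Neg at E11, and Hapln1 declines from E9.5 to E11 in both.

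Of the other enzymes that degrade hyaluronan, 6 of the 9 listed were tested. Spam1, Hyal4 and Cemip were at 0 in every population. Tmem2 (also named Cemip2), the gene of a cell-surface hyaluronidase, was called in 5 of the 6 comparisons. It ranged from 92.5 to 188 normalized CPM in CD44Neg (median 146) and from 210.3 to 605 in CD44LowKitNeg (median 405), and was at 29.2, 23.9 and 162 in CD44LowKitPos and at 10.9, 19.7 and 10.3 in CD44High. CD44LowKitNeg lay above all other libraries and CD44High below them. Tmem2 was 1.51 ± 0.23 higher on the log2 scale in CD44LowKitNeg than in CD44Neg (edgeR adjusted p = 0.000163), also at E11 alone (2.12 ± 0.32, edgeR adjusted p = 0.00630). It was lower in CD44LowKitPos than in CD44LowKitNeg (-2.50 ± 0.51, edgeR adjusted p = 0.00355) and lower again in CD44High than in CD44LowKitPos (-2.39 ± 0.56, edgeR adjusted p = 0.00897). The first of these calls was lost without CD44LowKitPos replicate 17 or 18 (adjusted p up to 0.0380). The second was kept in 8 of 26 alternatives (-2.84 to -0.97, adjusted p up to 0.274), and was lost with a stage term, with the size factors of DESeq2 and without any 1 CD44Neg or CD44High library, CD44LowKitNeg replicate 13 or 16, or CD44LowKitPos replicate 19. Like Has2, Tmem2 had its highest levels in the E11 libraries of CD44LowKitNeg, at 605, 588 and 492.9. Gusb, the lysosomal beta-glucuronidase that removes sugars from hyaluronan fragments, moved the other way. It ranged from 86.7 to 141 in CD44Neg and from 49.4 to 102 in CD44LowKitNeg, and was at 340.4, 239 and 176 in CD44LowKitPos and 213, 277 and 433 in CD44High. Its log2 fold change was 1.65 ± 0.25 in CD44LowKitPos against CD44LowKitNeg (edgeR adjusted p = 0.000332) and 1.48 ± 0.22 in CD44High against CD44Neg (edgeR adjusted p = 2.41e-05). Hexa, another lysosomal enzyme gene, named here after its values were seen, was also called higher in CD44High than in CD44Neg, by 1.52 ± 0.31 (edgeR adjusted p = 0.000618). The call was lost at E11 alone, with a stage term and without CD44High replicate 22 (adjusted p up to 0.0365). Lysosomal genes are also strongly expressed by macrophages. The summed macrophage markers were 164 to 222 normalized CPM in CD44LowKitPos and 3661 to 5860 in CD44High, and their part in these genes was not tested.

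For proteins that anchor, shed or bind CD44, 12 genes were listed, and 10 were tested between CD44LowKitNeg and CD44Neg. Of these 3 were called, all higher, beside 4.94% of all genes called higher, and the median log2 fold change over the 10 was 0.85, beside 0.0050 over all genes. Srgn, the gene of serglycin, a proteoglycan that CD44 can bind, ranged from 0 to 33.7 normalized CPM in CD44Neg, from 34.7 to 142 in CD44LowKitNeg, and was at 252, 458 and 186 in CD44LowKitPos and 1191, 773 and 174 in CD44High. It was higher by 3.08 ± 0.60 on the log2 scale in CD44LowKitNeg (edgeR adjusted p = 0.00113), by 4.71 ± 0.65 in CD44LowKitPos (edgeR adjusted p = 5.78e-05) and by 5.96 ± 0.66 in CD44High (edgeR adjusted p = 4.18e-07) than in CD44Neg. No CD44Neg library reached the lowest CD44LowKitNeg library. Adam10, a protease that cuts the CD44 ectodomain from the cell, ranged from 258 to 638 in CD44Neg and from 608 to 864 in CD44LowKitNeg (1.13 ± 0.17, edgeR adjusted p = 0.000161). Rdx encodes radixin, which ties CD44 to actin. It rose by 0.68 ± 0.14 from CD44Neg to CD44LowKitNeg (edgeR adjusted p = 0.00174) and was lower in CD44High than in CD44Neg (-1.17 ± 0.25, edgeR adjusted p = 0.00135). Its lower level in CD44LowKitPos than in CD44LowKitNeg (-1.10 ± 0.27, edgeR adjusted p = 0.00915) was called in 9 of 26 alternatives (-1.54 to -0.80, adjusted p up to 0.0816). It was lost without the filter on low counts and without any 1 of CD44Neg replicates 2, 4, 5, 7, 8, 9 and 10, CD44LowKitNeg replicates 12, 13, 14, 15 and 16, CD44LowKitPos replicates 17 and 18 and CD44High replicates 21 and 22. At E11 alone the calls of Srgn (edgeR adjusted p = 0.0227), Adam10 (0.0599) and Rdx (0.243) between CD44LowKitNeg and CD44Neg were lost. Without 1 of CD44High replicates 21 and 22 the lower Rdx level in CD44High than in CD44Neg was no longer called.

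**Figure D5:**
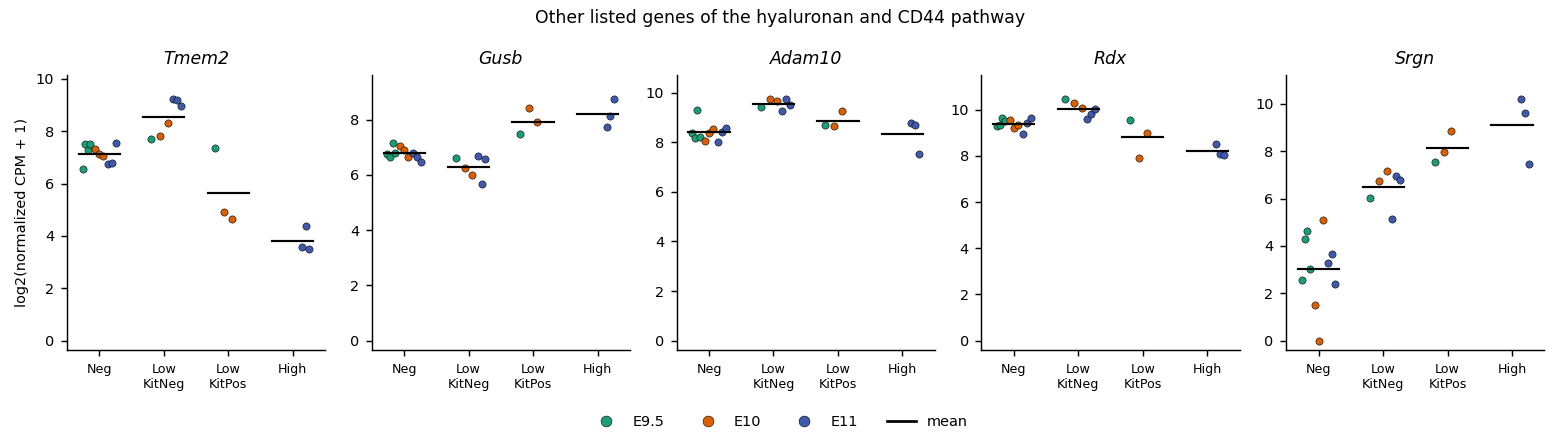
Levels of Tmem2, Gusb, Adam10, Rdx and Srgn in each library, as log2(normalized CPM + 1), by population, with colours for the stage and a line at the population mean. Tmem2 peaks in CD44LowKitNeg and is lowest in CD44High, while Gusb is higher in CD44LowKitPos and CD44High and Srgn is lowest in CD44Neg.

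In CD44High against CD44LowKitNeg 6 of 12 genes of this list were called, beside 16% of all genes (Cd74 and Srgn higher, Adam10, Mmp14, Msn and Rdx lower), and against CD44Neg 5 of 12, beside 14.4% (Cd74, Lgals9 and Srgn higher, Mmp14 and Rdx lower). Cd74, the invariant chain of antigen presentation, Mmp14, a membrane metalloprotease, Msn (moesin), Lgals9 (galectin-9), Tlr2, Ccna2 and the genes named for DESeq2 calls were chosen after their values were seen. Against CD44LowKitNeg, the call of Cd74 was lost without any 1 CD44LowKitNeg or CD44High library, that of Srgn without CD44LowKitNeg replicate 11, 13, 14 or 15 or CD44High replicate 20 or 21, that of Adam10 without CD44High replicate 22 and that of Msn without CD44High replicate 20 (adjusted p up to 0.0611). The call of Adam10 was also lost at E11 alone, and that of Cd74, against both populations, at E11 alone, with a stage term and with DESeq2. Against CD44Neg, Cd74 was lost without any 1 CD44High library (adjusted p up to 0.0601) and Lgals9 at E11 alone (0.0451). Cd74 was at 8.31, 7.99 and 12.8 normalized CPM in CD44High and at 0 in the other 19 libraries, and Mmp14 was at 0, 0 and 7.72 normalized CPM in CD44High against 19.1 to 132 in CD44Neg. Of 4 other receptors of hyaluronan fragments 3 were tested, and Tlr2, an innate immune receptor, was called higher in CD44High than in CD44Neg (4.51 ± 1.05, edgeR adjusted p = 0.00259), but not at E11 alone, with a stage term or without CD44High replicate 22 (adjusted p up to 0.0229). DESeq2, but not edgeR (2.09 ± 0.60, adjusted p = 0.0121), also called Tlr4, a related receptor, in this comparison. The CD44High libraries in which Tlr2, Cd74, Lgals9 and Srgn were higher had summed macrophage markers of 3661, 5213 and 5860 normalized CPM. Srgn ran in the reverse order, at 1191, 773 and 174. In CD44LowKitPos these sums were at most 222. There Lgals9 was at 132 to 328, Srgn at 186 to 458, Tlr2 at 5.58 to 20.9 and Cd74 at 0. The part of the macrophage markers was not tested. No listed proteoglycan or linker (5 or 6 of 16 tested) and none of the 3 tested splicing regulators of Cd44 was called by edgeR in any of the 6 comparisons, with at most 3 of 6 proteoglycans or linkers (CD44High against CD44Neg, beside 33.2% of all genes) and 1 of 3 regulators (CD44LowKitNeg against CD44Neg, beside 32.6%) at an unadjusted p under 0.05. DESeq2 called 1 of them, the link protein gene Hapln3, in CD44LowKitNeg and in CD44High against CD44Neg.

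For the 8 members that passed the filter, the genes with the most similar pattern over the 22 libraries are given as a description, by the Pearson correlation of log2 CPM with 12948 other genes. The closest to Cd44 were Emb (0.93), Meis1 (0.90) and Srp14 (0.89), and genes close to Has2 were Syt15 (0.90) and Cfi (0.88). Hyal2 was closest to Egfl7 (0.97), an endothelial gene, Plk2 (0.96) and Caskin2 (0.95). For Hmmr the 3 were Prc1 (0.96), Kif15 (0.95) and Ska1 (0.95), which encode mitotic spindle proteins. Stab1 resembled Cttnbp2nl (0.92), Frmd4b (0.89) and Zfp36l1 (0.89) most, and Stab2 resembled Colgalt2 (0.93), Nr2f2 (0.90), a transcription factor of venous endothelium, and Kbtbd11 (0.89). Genes near to Hapln1 were Slc39a10 (0.92) and Tsen34 (0.91). Lyve1 had no close match, with Pknox1 (0.73), Rab39b (0.71) and Cpne2 (0.70) at the top. Among the members themselves the strongest correlation was between Cd44 and Stab2, at -0.82, followed by Hyal2 and Hapln1 at 0.73. The points share populations, stages and sequencing depth.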

How the data were processed

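RNA of 25 sorted cells per library was reverse transcribed and amplified with SMART-Seq2 (oligo-dT primers). The authors clipped adaptors with FASTX, mapped reads with RNA STAR and deposited raw read counts per gene from htseq-count, without normalization. The submitters' processing notes name mm10, FastQC and HTSeq. The annotation, strand setting and treatment of shared reads are not given in the sources used here. All columns were assigned to libraries by their labels.

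Whole-table fits used R 4.3.3 with edgeR 4.0.16: filterByExpr (minimum count 10, minimum total 15), TMM scaling, quasi-likelihood tests (prior count 0.125) and Benjamini-Hochberg adjustment over all genes tested. CD44LowKitNeg was compared with CD44Neg over 16 libraries, and a single fit of 22 libraries gave the 5 remaining population comparisons. Stages were compared within 10 CD44Neg and 6 CD44LowKitNeg libraries. SEs were derived from the F statistic. The fits were tested on simulated data. Alternatives were DESeq2 1.42.0 (size factors and Wald test), no filter, an adjusted p under 0.05, stage as a covariate, E11 alone and leaving out each library. Shares of all genes called were counted for the main edgeR fits only. Normalized CPM used the TMM factors, and correlations used a prior count of 2. Figures were drawn with Python 3.11.15 and matplotlib 3.10.9, and exon lengths came from GENCODE M21.

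The members, gene lists and tests were chosen with earlier results of these data known. Named beside the members were, per list, the 2 largest called rises and falls in CD44LowKitNeg against CD44Neg, genes called in at least 3 of 6 comparisons, and the 3 genes most correlated with each member. The single-cell data of the study were not analysed here. Values of 3 genes that this rule or the lists include are not reported here.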

Additional observations from a re-analysis of the deposited data

How the results depend on the processing

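Of the 16 calls of a member in a comparison, 9 held under every alternative and none changed sign. They include calls of Cd44, whose protein was used for the sort. They also include calls of Has2 and Stab2, each at or near 0 in 1 of the populations compared. No paired analysis was possible because each replicate number belongs to 1 library only. The alternatives for single members in the comparisons of stages were added after the data were seen.

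The number of members called between CD44LowKitNeg and CD44Neg fell from 3 to 1 with E11 alone. It rose to 4 with a stage term, which added Hyal2, and was 3 to 4 with 1 library left out. For CD44LowKitPos against CD44LowKitNeg it was 1, but 2 at an adjusted p under 0.05, 3 with the Wald test of DESeq2, 0 with a stage term and 0 to 1 with 1 library left out. CD44LowKitPos against CD44Neg gave 3, but 4 at an adjusted p under 0.05 and with the Wald test, 2 with a stage term and 1 to 3 with 1 library left out. CD44High against CD44LowKitPos went from 1 to 3 at an adjusted p under 0.05, 2 without the filter, 3 with the Wald test, 2 with a stage term and 1 to 2 with 1 library left out. CD44High against CD44LowKitNeg gave 2 to 3 with 1 library left out. CD44High against CD44Neg gave 4 in place of 3 at an adjusted p under 0.05, which added Stab2, and 3 with any 1 library left out. Between E11 and E9.5 in CD44Neg the count was 2 in place of 1 at an adjusted p under 0.05, without the filter and with the Wald test, and 1 to 2 with 1 library left out. Between E10 and E9.5 it was 1 at an adjusted p under 0.05 and 3 without the filter or with the Wald test, in place of 0. Between E11 and E10 it was 1 without the filter or with the Wald test, in place of 0. In CD44LowKitNeg by stage it was 2 under each of these 3 settings in place of 1, and 0 to 0 with 1 library left out. The interaction with stage gave 1 at an adjusted p under 0.05, 2 without the filter and 1 with the Wald test, in place of 0. The share of all genes called was not counted under these settings, so the shifts cannot be set against it. The cause of these shifts was not tested.

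Differences that changed sign were all uncalled. The log2 fold change of Cd44 between CD44LowKitPos and CD44LowKitNeg was -0.10 with DESeq2's size factors and with its Wald test, -0.010 without the filter, -0.49 with a stage term and -0.32 to 0.15 with 1 library left out. For Cd44 in CD44High it was -0.26 to 0.24 against CD44LowKitNeg and -0.23 to 0.36 against CD44LowKitPos with 1 library left out. With a stage term, CD44LowKitPos against CD44LowKitNeg gave -0.13 for Hapln1 and 0.42 for Stab2, against -0.22 to 1.03 and -6.16 to 1.27 with 1 library left out. Stab2 in CD44High against CD44LowKitPos was -0.63 with a stage term and -0.22 to 6.12 with 1 library left out, and against CD44LowKitNeg -0.73 to 1.77. Lyve1 in CD44High against CD44LowKitNeg was 1.72 at E11 alone, and in CD44LowKitNeg against CD44Neg -1.05 to 0.21 with 1 library left out. Stab1 was 0.35 in CD44LowKitNeg against CD44Neg at E11 alone (-0.32 to 0.13 with 1 library left out). In CD44High it was -0.034 with a stage term and -0.53 at E11 alone against CD44LowKitNeg (-0.12 to 0.56), and -0.62 and -0.18 against CD44Neg (-0.16 to 0.53).

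Has1 and Has3 were under the filter, and at 3 CD44LowKitPos and 3 CD44High libraries the spread of the population comparisons is shared with the other groups. Each library holds 25 cells, so a count of 0 limits the RNA recovered from those cells and not the share of cells that express a gene.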
